A study of Homo sapiens with 32 samples.

Results

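The genes described here encode the translation initiation factors eIF2 (EIF2S1, EIF2S2 and EIF2S3, its α, β and γ subunits), eIF5 (EIF5), eIF5B (EIF5B) and eIF2B (EIF2B1 to EIF2B5, its α, β, γ, δ and ε subunits). The 10 genes, of 18638 with an Ensembl identifier in the sgRNA library, were chosen by factor name with the comparison of the high and low populations already known, in which EIF2S3 and EIF5B were among the lowest genes. Each had 4 sgRNAs, so 40 of the 74987 sgRNAs in the count table belonged to them. Their values in the comparisons between populations are therefore given as a description. Counts of members past the threshold used for all genes stand beside the share of all genes there, but nothing is read from them in high versus low, low versus medium or high versus medium. Member p-values are given for the change since T0, and for an asymmetry of the sort that subtracts medium from the sum of low and high. The asymmetry uses the same low and high libraries as the choice, in a combination that the high versus low difference does not fix. Its p-values are therefore not free of that choice.

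Translation of most mRNAs starts with the ternary complex, in which GTP-bound eIF2 carries the initiator tRNA to the small ribosomal subunit. When the start codon is met, eIF5 acts as the GTPase-activating protein of eIF2, eIF2B exchanges the GDP left on eIF2 for GTP, and eIF5B, a second GTPase, joins the large subunit. Stress kinases phosphorylate the α subunit of eIF2, which then inhibits eIF2B and sets off the integrated stress response.

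The study used RKO, a human colorectal cancer cell line, labelled wild type and, per the study's methods, carrying lentiviral transgenes for Cas9 and for Kinprola_PKA, a cytosolic recorder of protein kinase A (PKA) activity fused to EGFP. The recorder is a split HaloTag that becomes labeled by the fluorescent substrate CPY-CA when PKA is active, and labeling is normalized to EGFP. Cells transduced with a genome-wide knockout library were selected with puromycin, expanded, labeled and sorted on CPY-CA/EGFP into high (about 25%), medium (about 50%, called basal in the labels) and low (about 25%) populations. A day 0 control, T0, was sequenced beside them, and the screen is present as 2 independent runs, labelled replicates 2 and 3, which gives 1 library of each of the 4 kinds per screen and 8 in all. Every library, T0 included, comes from RKO cells, each a pool in which cells carry different sgRNAs, and the share of edited cells per sgRNA was not measured here. The labels do not say how long after transduction the day 0 cells were taken.

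The 8 libraries held 23369720 to 31777138 reads, with a median of 260 to 356 reads per sgRNA. Below, reads are scaled to a common library total and summed over the 4 sgRNAs of a gene unless a single sgRNA is named. A log2 fold change is the mean over sgRNAs of the log2 ratio within a screen, after adding 1 read, and is averaged over the 2 screens with the standard error (SE, n = 2 screens) of limma. These errors are moderated: limma draws the variance of each gene between its 2 screens toward a value shared by all genes. They can therefore be smaller or larger than the gene's own spread, and the p-values depend on that shared value. Reads of PCR products without molecular identifiers are not independent molecules.

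At T0 the members were not evenly represented. EIF2S1 had 156 and 154 scaled reads per sgRNA in replicates 2 and 3, against a median over all genes of 352 in each, which placed it at percentiles 2.09 and 1.74. EIF2S3 was at percentiles 10.3 and 6.16, while EIF5B was at 53.6 and 65.1. EIF2S1 and EIF2S3 thus started from fewer reads than most genes, and both had the lowest counts of the members in medium and high.

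Averaged over its sgRNAs, each of the 10 genes was lower after T0 in both screens. The pool before sorting was rebuilt as the sum of high, medium and low reads weighted by the gate shares and set against T0 in each screen. The change was past an adjusted p of 0.05 and negative for 10 of 10 members (limma with Benjamini-Hochberg adjustment over all genes), against 8.35% of all 18638 genes. The median over members was -1.03 on the log2 scale and that over all genes was 0.04. Centring on sgRNAs without a genomic target, in place of the library total, left 10 members called lower, while the share of all genes called lower rose to 33.4%.

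The 3 subunits of eIF2 lost most. EIF2S1, the subunit that stress kinases phosphorylate, had 626 scaled reads at T0, 378 in low, 69 in medium and 67 in high in replicate 2. In replicate 3 it had 616, 227, 60 and 66 in the same order. In the rebuilt pool 23.3% and 16.7% of its T0 reads were left, the smallest shares among the members. Its log2 change was -2.48 and -2.23 in the 2 screens, with a mean of -2.36 (SE 0.10, limma adjusted p = 2.4e-16). EIF2S2, the β subunit that binds eIF5 and eIF2B, went from 1054 at T0 to 489, 398 and 381 in low, medium and high of replicate 2, and from 995 to 399, 397 and 393 in replicate 3. Its 3 sorted libraries of replicate 3 lay within 6 reads of each other, unlike those of the other eIF2 subunits. These sums cover sgRNAs that differed. In low, medium and high of replicate 3, sgRNA 3 had 107, 175 and 126 reads and sgRNA 4 had 266, 194 and 237. The change of EIF2S2 was -1.72 (SE 0.10, limma adjusted p = 8.86e-14). EIF2S3, the γ subunit that holds GTP and the initiator tRNA, had 872 reads at T0 and 601, 172 and 168 in low, medium and high of replicate 2. In replicate 3 the values were 784, 415, 148 and 102. It was therefore below T0 in every sorted library, but the low population had kept several times the reads of the others. Its change was -1.77 (SE 0.11, limma adjusted p = 4.95e-13).

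EIF5 and EIF5B lost less in the pool, and their sgRNAs were above or near the T0 level in the low population. EIF5 had 1433 scaled reads at T0 and 1889, 886 and 579 in low, medium and high of replicate 2. In replicate 3 it had 1243 at T0 and 1959, 791 and 459. Low was thus 132% and 158% of T0, whereas high was 40.4% and 36.9%. The change of its pool, -0.37 (SE 0.10, limma adjusted p = 0.0128), was the smallest of the 10, at -0.53 and -0.21 in the 2 screens. With equal shares for the 3 populations it was -0.27 and missed the threshold (limma adjusted p = 0.0993), whereas the weighted mean of log2 values gave -0.60 (limma adjusted p = 0.0012). Libraries were left out 1 at a time in a limma fit on the 8 libraries, which also used weighted log2 values and gave EIF5 -0.60 (adjusted p = 0.0043) with all of them. In that fit EIF5 was at -0.49 without the T0 library of replicate 2 and missed the threshold (limma adjusted p = 0.132). EIF5B had 1456 at T0 and 1710, 414 and 312 in low, medium and high of replicate 2, and 1614, 1585, 334 and 299 in replicate 3. Its low library was 117% and 98.2% of T0, and its high library 21.4% and 18.5%. The change was -1.06 (SE 0.10, limma adjusted p = 1.96e-09).

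The 5 subunits of eIF2B lost between 0.63 and 1.05 on the log2 scale, written here as sizes of a decrease. EIF2B3, part of the catalytic arm with EIF2B5, fell by 1.05 (SE 0.10, limma adjusted p = 1.73e-09), EIF2B4 fell by 1.01 and EIF2B5, which holds the exchange activity, fell by 1.00. EIF2B1, the regulatory α subunit, fell by 0.63 (limma adjusted p = 1.6e-05), and EIF2B2, the β subunit, fell by 0.65. In the fit on libraries EIF2B1 was at -0.65 (limma adjusted p = 0.00155), and at -0.54 without the T0 library of replicate 2, where it missed the threshold (limma adjusted p = 0.064). In each screen all 3 eIF2 genes lay lower than all other members, since none of their changes was above -1.52 and the lowest of the others was -1.16. Differences between members were not tested.

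**Figure D1:**
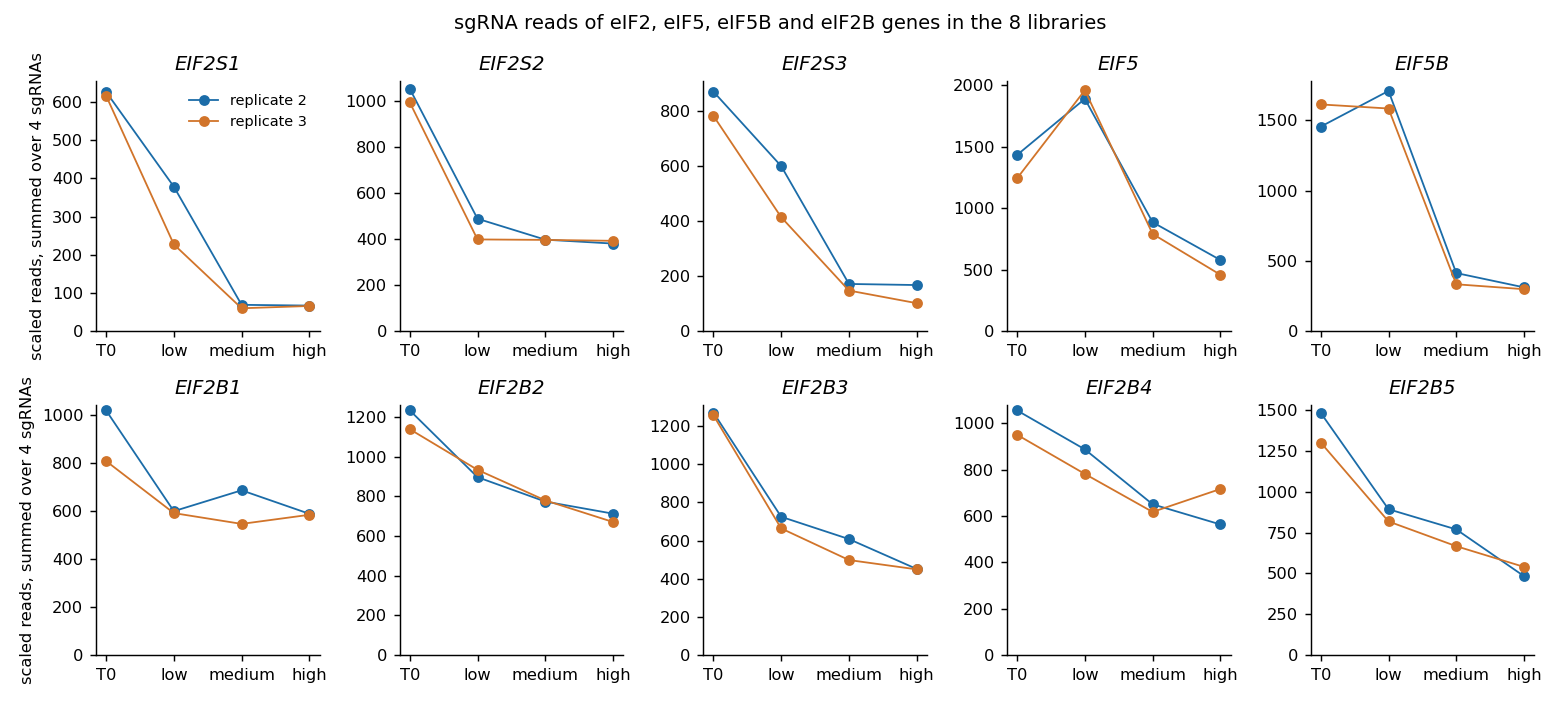
Scaled reads, summed over the 4 sgRNAs of each gene, in the T0, low, medium and high libraries (x axis) of replicates 2 (blue) and 3 (orange). Each panel has its own y axis starting at 0. EIF5 and EIF5B peak or stay near T0 in low and drop in medium and high. EIF2S1 and EIF2S3 drop from T0 to low and again from low to medium. The eIF2B genes and EIF2S2 show a step from low to medium that is smaller relative to their reads, or none.

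Single sgRNAs were examined next, since 4 sgRNAs of a gene share a target and are not replicates of the knockout. Of the 40, 39 passed the filter on low counts of edgeR, and 31 of these were lower than T0 at an adjusted p of 0.05 (edgeR quasi-likelihood test with the screen as a block), against 6.29% of all 74415 sgRNAs tested, and no estimate among the 39 was above 0. All 4 sgRNAs were lower for EIF2S3, EIF2B2 and EIF2B5, and all 3 tested for EIF2S1. For EIF5 2 of 4 were lower, and for EIF2B1 2 of 4. Without the T0 library of replicate 2 the count was 19.

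EIF2B4, the δ subunit, held the sgRNA with the mean change nearest to 0. This sgRNA, number 1, had 518 scaled reads at T0 and 537, 474 and 429 in low, medium and high of replicate 2, and 457, 502, 449 and 574 in replicate 3. That sgRNA stayed near its T0 level in every library (edgeR log2 change -0.02, adjusted p = 0.963), and the other 3 sgRNAs of EIF2B4 had edgeR log2 changes of -1.27, -1.58 and -1.51. A similar gap separated the sgRNAs of EIF2B3 by library entry. The library lists 5 further sgRNAs under the symbol EIF2B3 among its controls, which are no members. Their summed reads were 1087 at T0 and 1328, 1005 and 1189 in low, medium and high of replicate 2, and 1103, 1281, 1315 and 1125 in replicate 3. By edgeR 0 of the 5 were lower than T0, also at an unadjusted p under 0.05, and the entry's change was 0.11 (SE 0.10, limma adjusted p = 0.53), where the 4 member sgRNAs of EIF2B3 averaged -1.05. The difference between the entries was not tested. The target sites of the sgRNAs were not analysed here.

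**Figure D2:**
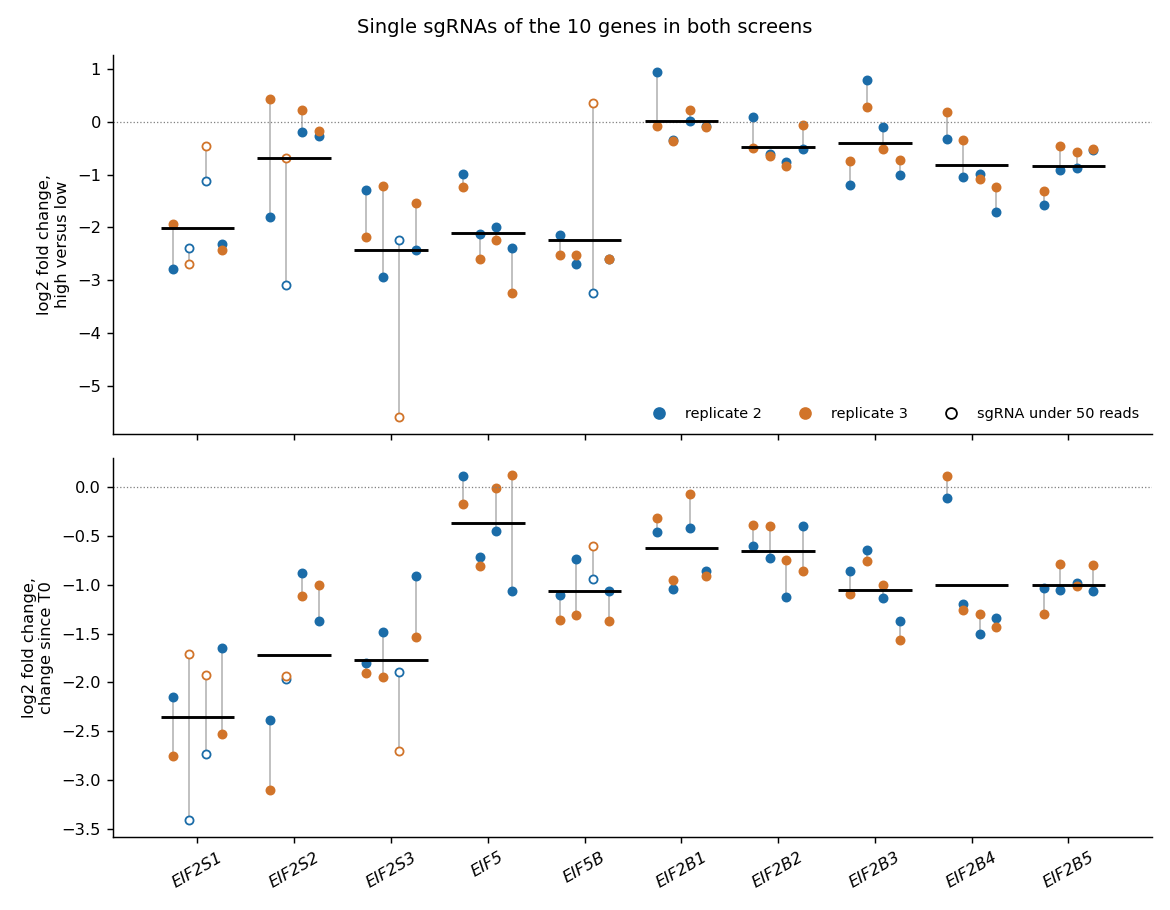
Log2 fold change of each sgRNA in high versus low (top) and since T0 (bottom). Points are replicates 2 (blue) and 3 (orange) of 1 sgRNA joined by a grey line, open points are sgRNAs with a mean under 50 reads, and black bars are gene means. The widest distances between screens in high versus low belong to open points of EIF2S3 and EIF5B, and sgRNA 1 of EIF2B4 lies near 0 since T0, apart from its other 3 sgRNAs.

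Between the sorted populations, sgRNAs of 4 genes were strongly displaced to the low side. In high versus low, 8 of 10 members were called lower (limma adjusted p under 0.05), beside 2.73% of all genes, and since the genes were chosen with this contrast known nothing is read from that count. The log2 fold changes were -2.43 for EIF2S3 (SE 0.12), a 5.38-fold lower abundance, -2.25 for EIF5B (SE 0.17), -2.10 for EIF5 (SE 0.13) and -2.02 for EIF2S1 (SE 0.12). They were places 3, 7, 12 and 15 from the lowest of 18638 genes. The order depends on low counts. EIF2S3 sgRNA 3, with a mean of 36.5 reads and 0 in high of replicate 3, was at -5.59 there. With only sgRNAs of at least 50 reads, EIF2S3 was at -1.93, EIF5B at -2.51, EIF5 at -2.10 and EIF2S1 at -2.37. Together the 4 genes cover the γ and α subunits of eIF2, its GTPase-activating protein and the GTPase of subunit joining. In the rebuilt pool, 60.0% and 62.1% of the EIF5B reads and 64.8% and 55.0% of the EIF2S1 reads fell in the low gate, which took 25% of the cells.

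EIF2S2, although a subunit of the same eIF2 complex, lay apart. Its high versus low value was -1.33 in replicate 2 and -0.05 in replicate 3, with a mean of -0.69 (SE 0.22), and it was not among the genes called. In the fit on libraries it was among them without the low (-1.08) or the high library (-1.16) of replicate 3, and lay at -0.31 and -0.22 without the low or the high library of replicate 2. Its sgRNA 1, with 73.5 unscaled reads on average and 15 to 54 scaled reads in the sorted libraries, was at -1.81 in replicate 2 and 0.43 in replicate 3. Its sgRNA 2 had 9.13 unscaled reads on average, with 0 reads in high of replicate 2, where a count of 0 allows up to 3 reads. Its sgRNAs 3 and 4 had 107 to 266 scaled reads in the sorted libraries and lay between -0.26 and 0.22 in high versus low. The 5 eIF2B genes, encoding the exchange factor of eIF2, lay from -0.84 to 0.03. EIF2B5 was at -0.84 (SE 0.11), EIF2B4 at -0.82 (SE 0.12), EIF2B2 at -0.47 (SE 0.11) and EIF2B3 at -0.40 (SE 0.11). EIF2B1, at 0.14 and -0.08 in the 2 screens, was the only member whose screens differed in sign. The neighbours EIF2B5 and EIF2B4 differed by less than their SE, as did EIF2B2 and EIF2B3, while EIF2B4 and EIF2B2, and EIF2B3 and EIF2B1, lay further apart than that.

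Of the 40 sgRNAs, 32 were lower in high than in low in both screens, beside 29.0% of the 74552 sgRNAs compared, 2 were higher in both, and 6 went opposite ways. Since the genes were chosen with this contrast known, nothing is read from these counts. All 4 sgRNAs of EIF2S1, EIF2S3, EIF5 and EIF2B5 were among the 32, with 3 of 4 of EIF5B. The exception in EIF5B, sgRNA 3, had 66, 2 and 6 scaled reads in low, medium and high of replicate 2 and 27, 15 and 36 in replicate 3. The other 3 sgRNAs of EIF5B were between -2.15 and -2.70 in both screens. The well-counted sgRNAs of EIF5B thus lay close together, and its screens differed most in an sgRNA with a mean of 27.3 reads.

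**Figure D3:**
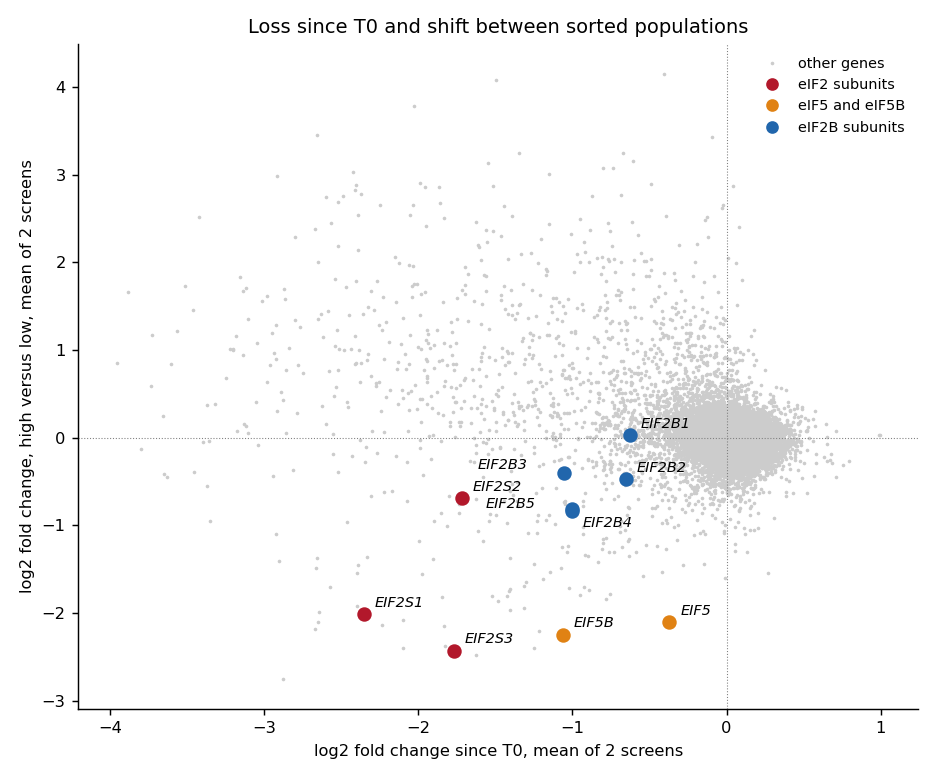
Log2 fold change since T0 (x axis) against log2 fold change in high versus low (y axis), each the mean of 2 screens, for all genes (grey) and the members by complex. EIF2S1, EIF2S3, EIF5B and EIF5 lie between -2.43 and -2.02 in high versus low at changes since T0 from -2.36 to -0.37. EIF2B4 and EIF2B5 overlap at about -1 since T0.

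The displacement was then split at the medium population. Low versus medium was 2.34 for EIF5B (SE 0.15), 2.28 for EIF2S1 (SE 0.24), 2.00 for EIF2S3 (SE 0.13) and 1.31 for EIF5 (SE 0.10). EIF2B4 followed at 0.74 (SE 0.11). These 5 members were called higher in low, beside 1.18% of all genes, and nothing is read from the count because the low libraries are those of the choice. High versus medium was 0.10 for EIF5B, 0.26 for EIF2S1 (0.76 and -0.24 in the 2 screens) and -0.42 for EIF2S3 (0.01 and -0.86). EIF5, at -0.79 (SE 0.12), was the only member called lower in high than in medium, beside 0.0966% of all genes, and nothing is read from this call either, since it uses the high libraries of the choice. EIF2B5 was at -0.57 and EIF2S2 at -0.61, neither of them called. EIF5 sgRNAs therefore fell step by step from low through medium to high, with all 4 lower in high than in medium in both screens, while those of EIF5B differed among themselves between medium and high. The EIF5B sgRNAs 1 and 4, with 388 and 387 unscaled reads on average, were lower in high than in medium in both screens, at -0.16 and -0.23 and at -0.66 and -0.57. The sgRNA 3, with 27.3 reads, was higher in both, at 1.33 and 1.20.

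To test how unevenly a gene sat about the medium population, its log2 values in low and high were added and 2 times that in medium was subtracted. A positive value means that the mean of the log2 values in low and high lay above that in medium. It does not require both outer populations to lie above medium. Only EIF5B passed, at 2.63 and 2.25 in the 2 screens and a mean of 2.44 (SE 0.19, limma adjusted p = 0.0304), beside 0.0376% of all genes. That value came almost only from low versus medium, at 2.34, with high versus medium at 0.10. The low libraries are those of the choice, so the p-value for EIF5B is not free of it. EIF2S1 had the larger mean, 2.54, but differed between screens at 3.67 and 1.40 (SE 0.47, limma adjusted p = 0.187). EIF2S3 was at 2.26 and 0.91, with a mean of 1.58 (SE 0.31, limma adjusted p = 0.213), and EIF5 at 0.52 (SE 0.18, limma adjusted p = 0.601). The screen difference of EIF2S1 was largest in its sgRNA 3, which had 0 reads in medium of replicate 2. The value of that sgRNA was 8.36 there and 3.20 in replicate 3. Its sgRNA 2, with a mean of 5.63 reads, also differed, at 2.40 and -0.60. With sgRNAs under a mean of 50 reads left out, EIF2S1 was at 1.73 (limma adjusted p = 0.0168) and EIF2S3 at 1.33 (limma adjusted p = 0.0365), so that 3 members passed. The share of all genes called higher was then 0.494%, against 0.0376% with all sgRNAs. The fit on the 8 libraries gave EIF5B the same 2.44 (SE 0.29, limma adjusted p = 0.0235). In that fit it missed the threshold without either T0 library, either medium library or the high library of replicate 3, at values of 2.20 to 2.61 with limma adjusted p from 0.0603 to 0.0955. The T0 libraries enter only through the error. EIF2S1 passed there without the medium library of replicate 3 (3.68, limma adjusted p = 0.00204), against 0.0695 with all libraries.

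**Figure D4:**
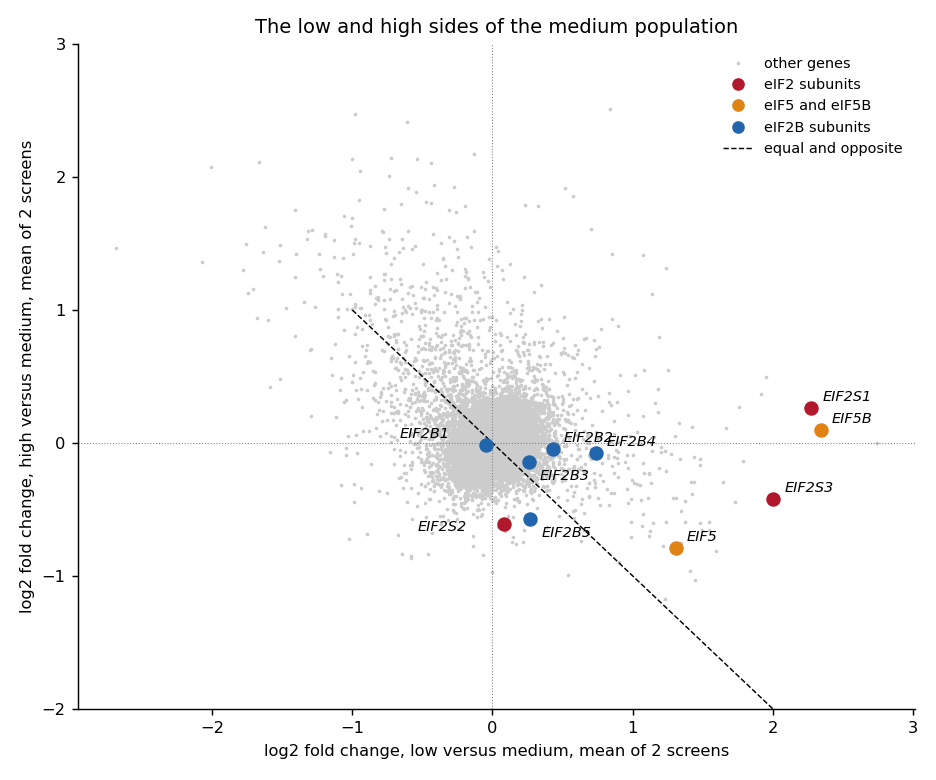
Log2 fold change in low versus medium (x axis) against high versus medium (y axis), each the mean of 2 screens, for all genes (grey) and the members by complex. On the dashed line the 2 values are equal and opposite. EIF2S1, EIF5B and EIF2S3 lie at low versus medium from 2.00 to 2.34 with high versus medium between -0.42 and 0.26, and EIF5 is nearer the dashed line.

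Genes that act around these factors were read from a list of 31 that holds no member. The list was chosen with earlier results of these data known. The p-values of its genes in comparisons between populations are therefore given as a description. In high versus low 9 were higher and 3 lower at an adjusted p of 0.05, beside 5.25% of all genes higher and 2.73% lower. The list's median was -0.06 against -0.01 over all genes. Of the 4 kinases that phosphorylate eIF2, 1 was called. EIF2AK4, the kinase GCN2 that senses uncharged tRNA, had 492, 1251 and 2151 scaled reads in low, medium and high of replicate 2 and 452, 1092 and 2311 in replicate 3. It was thus displaced to the high side in both screens, at 2.40 (SE 0.13, limma adjusted p = 2.99e-07). GCN1, the ribosome-bound activator of GCN2, had 615, 992 and 1820 reads in replicate 2 and 475, 986 and 2075 in replicate 3, at 1.78 (SE 0.13, limma adjusted p = 2.75e-06). The other 3 kinases, EIF2AK1, EIF2AK2 and EIF2AK3, lay between -0.11 and 0.08 and were not called, nor were the phosphatase subunits PPP1R15A (-0.12) and PPP1R15B (-0.17). Downstream of phosphorylated eIF2, DDIT3, a transcription factor of the stress response, was lower at -0.52 (SE 0.11, limma adjusted p = 0.00923). ATF4, whose mRNA is translated when eIF2 is phosphorylated, was at -0.41 (limma adjusted p = 0.0704). ATF4 lay above medium in low, at 0.66, and less so in high, at 0.34 and 0.15 in the 2 screens. The other list genes of this role were not called. ATF5 was at 0.11, and TRIB3 was at 0.17 and -0.74 in the 2 screens.

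The other list genes called in high versus low are given by role, without a claim about the roles as groups. EIF1, which guards start codon choice, was at 1.57 (SE 0.11), and EIF1AX, its partner on the small subunit, was at 0.55 (SE 0.11), while EIF1B, the paralog of EIF1, was at -0.35 (limma adjusted p = 0.149). DENR, which acts in recycling and re-initiation, was at 0.53. EIF5A, an elongation and termination factor, was at 1.15, and DHPS and DOHH, the enzymes that make its hypusine residue, were at 0.93 and 1.20, and EIF5A2, the paralog of EIF5A, was at 0.00 (limma adjusted p = 0.996). ABCE1, the ribosome recycling ATPase, was at 3.01 (SE 0.18, limma adjusted p = 6.91e-07), with 334 and 213 reads in low against 1380 and 1302 in high. EIF6, which keeps the large subunit from joining early, was on the low side at -1.78 (SE 0.11, limma adjusted p = 6.16e-07), with 2499 and 2308 reads in low against 750 and 713 in high.

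CDC123, the chaperone that assembles eIF2, was lower in high at -0.58 (SE 0.14, limma adjusted p = 0.0233), with -0.28 and -0.88 in the 2 screens, and its change since T0 was -0.01 (SE 0.10, limma adjusted p = 0.978). EIF2S3B, a paralog of EIF2S3, was at -0.32 (limma adjusted p = 0.152) in high versus low and at 0.10 since T0 (limma adjusted p = 0.566), where EIF2S3 was at -1.77. Whether sgRNAs of either gene match the other was not analysed here. Since T0, 6 of the 31 list genes were lower and 0 higher by limma, also at an unadjusted p under 0.05 for the higher ones, where 8.35% of all genes were lower. These were EIF1AX (-1.48), ABCE1 (-1.15), METAP2 (-1.08), a methionine aminopeptidase, EIF6 (-0.76), DENR (-0.44) and EIF5A (-0.36). EIF2AK4 and GCN1 were at 0.08 and -0.14 since T0 and were not called. In the asymmetry about medium, limma called 0 of the 31, with 5 at an unadjusted p under 0.05. Of all 18638 genes 7 were called there, and 1279 had an unadjusted p under 0.05.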

How the data were processed

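Per the labels and the study's methods, the authors amplified the sgRNA cassette from genomic DNA and counted reads per sgRNA with MAGeCK, and the deposited values are raw read counts per sgRNA and lane. The 4 lanes of a library were summed, and 4 columns of the table that match no sample were not used. Genes were named through GENCODE 44 (GRCh38). Reads were scaled to a common library total with a pseudocount of 1, sgRNA log2 ratios were taken within each screen and averaged per gene, and limma 3.58.1 (R 4.3.3) compared their average over both screens with 0, adjusting p-values by Benjamini-Hochberg over all genes. Single sgRNAs were tested with edgeR 4.0.16 on the counts as deposited. DESeq2 1.42.0 was an alternative, as was limma on the 8 libraries, in which libraries were left out 1 at a time. The gene tests of high versus low, the asymmetry and the change since T0, and the edgeR test of single sgRNAs, were also run on simulated data. Ratios within a screen pair same-numbered libraries, which are the same screen, and their deviations from the group means correlated at 0.10 to 0.14 among sorted libraries and 0.08 between T0 and medium. The genes named were all members, CDC123, the EIF2S3 paralog, list genes called since T0 or between high and low, the EIF2B3 control entry, and the 5 genes nearest to EIF2S3 and EIF2B4. List genes named in addition (EIF2AK1, EIF2AK2, EIF2AK3, PPP1R15A, PPP1R15B, ATF4, ATF5, TRIB3, EIF1B, EIF5A2) were chosen after their values were seen. The members and lists were chosen with earlier results of these data known.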

Additional observations from a re-analysis of the deposited data

How the results depend on the processing

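The count of members called on the asymmetry about medium, 1, became 3 with a pseudocount of 5 reads, with centring on sgRNAs without a target, with sgRNAs of at least 50 reads and with the median over sgRNAs, and ranged from 0 to 1 when 1 library was left out. The members added were EIF2S1 and EIF2S3 each time, and the cause was not tested beyond the low counts given above. The share of all genes called higher on the asymmetry rose too, from 0.0376%. It was 0.397% with the pseudocount of 5, 0.606% with the centring, 0.494% with sgRNAs of at least 50 reads and 1.12% with the median. The count of single sgRNAs lower since T0 ranged from 19 to 31 when 1 library was left out. Without the replicate block edgeR called 30, and DESeq2 with the replicate block called 31. Members lower since T0 numbered 8 to 10, and those lower in high versus low 6 to 8, when 1 library was left out. For gene values these leave-outs used limma on the 8 libraries with the replicate block, which with all libraries called 8 members in high versus low, 1 on the asymmetry and 10 since T0. Centring on sgRNAs without a target moved the median of all genes since T0 from 0.04 to -0.20, with 24 higher and 6232 lower in place of 473 and 1556. In high versus low it moved from -0.01 to 0.10, with 1273 higher and 281 lower in place of 979 and 508, and EIF2B2 and EIF2B3 were no longer called. Counts under 50 reads limit 5 of the 40 sgRNAs. The alternative that keeps sgRNAs with a single perfect genomic match was not run, since sgRNA sequences were not analysed here.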

Other observations

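The genes whose pattern was most like that of EIF2S3, by Euclidean distance over 6 log2 values (high versus low, asymmetry about medium and change since T0 in each of the 2 screens), were RPL31 (distance 1.22), RPF2 (1.30), ISG20L2 (1.33) and RPL13 (1.38), followed by WDR74. RPL31 and RPL13 are proteins of the large ribosomal subunit, and RPF2 acts in its assembly. For EIF2B4 the nearest were RBM28 (0.53), SPATA31A5 (0.59), ZNF335 (0.64), HNRNPL (0.66) and ABCF1 (0.66). Distances grow with the size of the values and with low counts, and they are given as a description. Among the 10 members, 2 had another member among their 10 nearest genes.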
